A study of Mus musculus with 6 samples.

Results

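The 44 genes described here encode the chains of the collagens, and they were measured as messenger RNA in subcutaneous CT26 tumours of BALB/c mice. They are the protein-coding gene models, of 40303 in the table, whose symbol is that of a collagen chain. By the structure of the protein, 11 are fibrillar chains, 6 are chains of the basement membrane collagen type IV and 27 are other chains. CT26 is a mouse colon carcinoma line from the same strain, and the hosts were labelled wild type. 3 mice received PEGylated glutaminase, an enzyme that breaks down circulating glutamine, into the peritoneum at 50 IU per kg. The other 3 received the vehicle, phosphate-buffered saline with 10% glycerol, and injections in all 6 mice began once tumours could be felt and were given 2 times, every 3 days. Each mouse gave 1 tumour and 1 library, so host stroma and carcinoma cells were measured together. The comparison asks which collagen transcripts differ in the tumour after PEG-glutaminase.

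Collagens are triple helices of 3 chains, wound from identical or different gene products in the endoplasmic reticulum and secreted as procollagens. Fibrillar collagens form the tensile fibres of connective tissue, type IV collagen forms the sheet-like network of basement membranes, and the remaining types decorate fibrils, form beaded filaments or short-chain networks, or span the cell membrane. Proline and glycine make up much of each chain, and glutamine is one of the precursors from which cells make proline. In tumours, fibroblasts are a known major source of fibrillar chains, and endothelial cells and pericytes of vessel basement membrane chains. In bulk tissue, fewer cells of a type and less RNA per cell cannot be told apart.

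Between 16455052 and 18051480 reads per library fell on gene models, 16455052 to 16791267 in the PEG-glutaminase group and 17380129 to 18051480 in the vehicle group. Values are normalized counts, that is reads divided by a size factor of the library, which can be compared between libraries but not between genes of different length. Libraries differed in genes of skin and muscle. The summed count of 10 keratinocyte and skin genes was 8030 in vehicle 1 and 64.3 to 233 in the other libraries. That of 10 skeletal muscle genes was 1592 in PEG-glutaminase 2, 1007 in vehicle 3 and 53.5 to 513 in the others. Of 9 markers of gut epithelium and carcinoma, Cdx1 was at 0 in every library and Vil1 at most at 4.12. Cdx2 ran from 3.86 to 29.7, Epcam from 2.07 to 58.0, Krt8 from 6.87 to 27.8, Krt19 from 0.981 to 19.5, Cdh1 from 31.1 to 125 and Krt18 from 131 to 263. The highest Epcam and Cdh1 values were those of vehicle 1, against at most 8.83 and 59.8 elsewhere. Krt20 held most of the summed count and separated the groups, at 4317, 4464 and 5226 in vehicle and 3652, 2349 and 3374 in PEG-glutaminase tumours (limma adjusted p = 0.153, DESeq2 adjusted p = 0.0099). The sum of the 9 was 4696 to 5438 against 2592 to 3934, and its part in the collagen values was not tested. The single genes did not share the direction of this sum. Krt8, a low gene, was higher in every PEG-glutaminase tumour, at 9.66, 8.83 and 6.87 in vehicle against 14.5, 9.90 and 27.8. So was Krt19, also low, at 4.83, 0.981 and 2.94 against 9.32, 8.91 and 19.5. Cdh1, like Krt20, was lower in every PEG-glutaminase tumour, and the groups overlapped for Cdx2, Epcam, Krt18 and Vil1. Among cartilage and bone markers, Bglap, Ibsp and Hapln1 were at 0 in all 6 libraries.

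No collagen chain passed limma's test at an adjusted p of 0.05 over the 13557 genes tested, those whose mean reached 10 normalized counts, and 0.0369% of all tested genes did. Of the 28 chains tested, 2 had an unadjusted limma p under 0.05, against 18.4% of all tested genes, a smaller share than in the table as a whole. These were Col18a1, which was higher in PEG-glutaminase tumours, and Col4a5, which was lower, both with no overlap between groups. edgeR and limma-voom called no chain and had 2 each at an unadjusted p under 0.05. DESeq2, with an adjusted p for 25 of the chains, called 2, again Col18a1 and Col4a5, where it called 4.18% of the genes it judged. The groups did not overlap for 4 chains with all PEG-glutaminase tumours higher, where 13.1% of all tested genes had this pattern, and for 2 with all of them lower, where 12.7% did. In either direction that is 6 of 28 chains against 25.8% of genes, so the share of chains is near that of the table.

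The stretches just before the start sites of the 2 chains called by DESeq2, and of the neighbour that shares the Col4a5 locus, are shown because they are the regulatory sequence nearest to these differences. Col4a5 and Col4a6 lie head to head on the X chromosome, and their RefSeq starts are 1343 bp apart. Bases 250 to 11 before the first RefSeq start, 240 in all, are given on the gene's own strand in GRCm38.p6, in lower case, with CCAAT and GGGCGG on either strand in capitals.
Col4a5, chrX:141475169-141475408, plus strand: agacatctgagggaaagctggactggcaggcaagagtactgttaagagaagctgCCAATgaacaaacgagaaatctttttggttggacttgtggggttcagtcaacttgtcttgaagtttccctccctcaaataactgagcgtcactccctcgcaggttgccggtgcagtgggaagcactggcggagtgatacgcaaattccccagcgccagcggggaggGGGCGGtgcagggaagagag
Col4a6, chrX:141474087-141474326, minus strand: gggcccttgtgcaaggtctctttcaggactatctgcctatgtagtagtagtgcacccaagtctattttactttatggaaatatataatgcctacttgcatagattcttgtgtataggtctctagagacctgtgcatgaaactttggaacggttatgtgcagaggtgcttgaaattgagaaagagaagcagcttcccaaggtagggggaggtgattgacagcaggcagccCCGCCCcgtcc
Col18a1, chr10:77166541-77166780, minus strand: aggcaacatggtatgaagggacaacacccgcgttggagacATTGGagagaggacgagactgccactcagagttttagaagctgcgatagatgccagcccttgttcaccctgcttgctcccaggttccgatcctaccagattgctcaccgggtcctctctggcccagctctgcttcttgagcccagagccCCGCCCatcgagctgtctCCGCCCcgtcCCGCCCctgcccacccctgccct

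Each of the 3 windows held GGGCGG, the letters of the GC box, with 3 matches before Col18a1 and 1 each before Col4a5 and Col4a6. Of 32851 windows of this length in the promoter table, 31.3% held GGGCGG, and of the 38 windows of collagen chains 21 did. CCAAT stood once before Col4a5 and once before Col18a1, and was found in 33.0% of all windows and in 13 of those of collagen chains. TATAAA was in none of the 3, in 12.1% of all windows and in 5 collagen windows. The searched motifs do not overlap one another in these windows. The matches describe letters only. Col18a1 has 2 start sites in the table, and the gene counts do not separate them. Entries were found for 35 of the 44 chains.

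**Figure D1:**
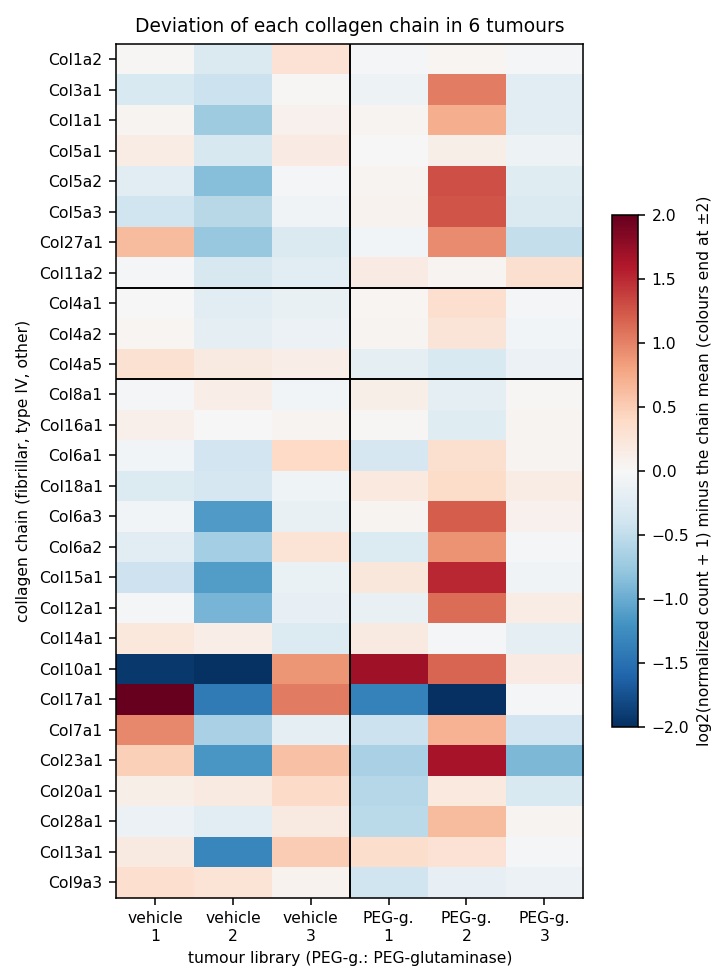
Heat map of the 28 tested collagen chains (rows, by class and then by mean count) in 6 tumours (columns), coloured by log2(normalized count + 1) minus the chain's mean over the 6 libraries. PEG-glutaminase 2 is red and vehicle 2 blue along most fibrillar and type VI rows, whereas Col18a1 and Col4a5 change colour at the line between groups.

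Measured per kilobase of the longest annotated transcript, the collagen transcripts of these tumours were led by the type I chain Col1a2. This corrects for length only, with lengths from another assembly than the gene models, so levels of different genes compare roughly. Col1a2, the second chain of the main fibrillar collagen of connective tissue, had a mean of 6760 normalized counts per kb. It was followed by Col3a1 at 1656, Col1a1 at 1549, the type IV chains Col4a1 at 1475 and Col4a2 at 1010, Col8a1 at 889, Col16a1 at 859 and Col6a1 at 696. Over the 44 chains, fibrillar chains made up 59.4% to 65.7% of the summed level per kb, type IV chains 13.6% to 17.7% and the other chains 20.7% to 22.9%. In each class the ranges of the treatment groups overlapped. The share of Col1a2 was 42.4% ± 2.15 (SD, n = 3) in vehicle and 37.9% ± 4.51 in PEG-glutaminase tumours. Without a replicate test these shares are given as a description. Collagen chains together held 0.431% to 0.725% of all normalized counts, lowest in vehicle 2 and highest in PEG-glutaminase 2.

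**Figure D2:**
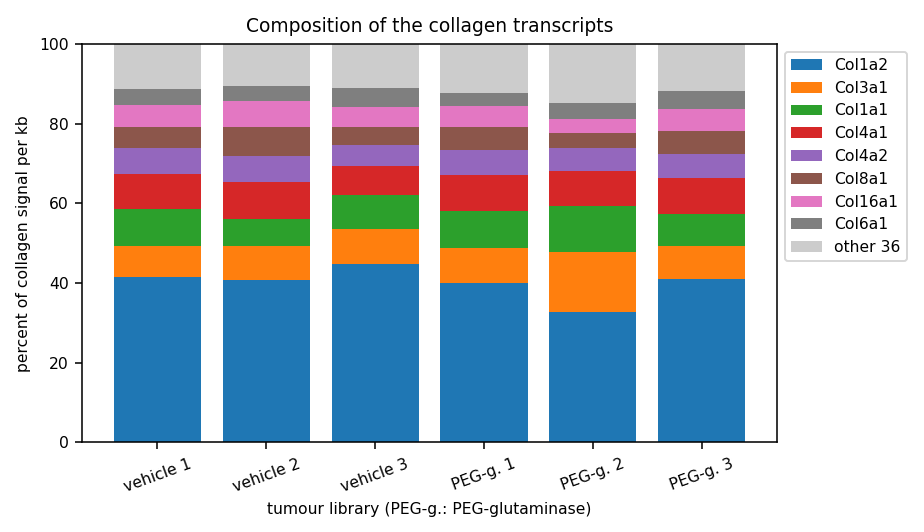
Stacked bars of the share of the summed collagen level per kb (percent, vertical axis) taken by the 8 leading chains and the other 36, in each of the 6 tumours. Col1a2 is the largest part of every bar, and Col3a1 takes 15.0% in PEG-glutaminase 2 against 7.67% to 8.74% in the other 5 tumours.

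Among the fibrillar chains none passed the limma test. Of the 8 tested, 7 had a log2 difference (PEG-glutaminase minus vehicle) above 0, with a median of 0.37 against 0.00 over all tested genes. The normalized counts of Col1a1, the chain present in 2 copies in the type I trimer, were 9134, 5365 and 9387 in vehicle 1, 2 and 3 and 9104, 14492 and 7642 in PEG-glutaminase 1, 2 and 3. Those of Col1a2, its partner in the same trimer, were 36448, 29491 and 43907 against 35363, 36699 and 35012. For Col3a1, the only chain of type III collagen, which forms thin fibrils with type I, they were 7008, 6387 and 8821 against 8050, 17549 and 7480. For Col1a1 and Col3a1 the highest value was that of PEG-glutaminase 2 and the lowest that of vehicle 2. The other 4 tumours intermingled for Col3a1, whereas for Col1a1 vehicle 1 and 3 lay above PEG-glutaminase 1 and 3. The log2 difference, on the log2(value + 1) scale and with its SE, was 0.38 ± 0.33 for Col1a1 (limma adjusted p = 0.575). It was -0.02 ± 0.14 for Col1a2 (limma adjusted p = 0.955) and 0.47 ± 0.37 for Col3a1 (limma adjusted p = 0.531).

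Type V chains, which enter type I fibrils and limit their diameter, split between Col5a1 and its partners. Col5a1 counted 3723, 2683 and 3783 in vehicle tumours and 3363, 3636 and 3130 after PEG-glutaminase, a log2 difference of 0.01 ± 0.13 (limma adjusted p = 0.984). Col5a2 counted 571, 372 and 662 against 694, 1649 and 567, and Col5a3 400, 358 and 502 against 553, 1268 and 432. Col5a2 lies next to Col3a1 on chromosome 1. Both partners of Col5a1 stood highest in PEG-glutaminase 2, at 2.89 and 2.93 times the median of the other 5 tumours, where Col5a1 was at 1.08 times. Their log2 differences were 0.73 ± 0.49 for Col5a2 (limma adjusted p = 0.466) and 0.69 ± 0.44 for Col5a3 (limma adjusted p = 0.445), within the spread of the tumours. Col11a2, a type XI chain known from cartilage, was low, with 28.0, 22.6 and 24.5 against 32.1, 29.7 and 36.0 and no overlap between groups. Its log2 difference was 0.37 ± 0.26 (limma adjusted p = 0.458). Col27a1 ran from 16.7 to 56.4 with overlapping groups and a log2 difference of 0.28 ± 0.45 (limma adjusted p = 0.767).

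Type IV chains were divided, with higher means of Col4a1 and Col4a2 and a lower mean of Col4a5 after PEG-glutaminase. Col4a1 and Col4a2, which form the network found in nearly all basement membranes, counted 9666, 8353 and 8776 against 9974, 12257 and 9518, and 6678, 5678 and 5979 against 6722, 7790 and 6248. PEG-glutaminase 2 was highest for both, and the groups overlapped through vehicle 1. The log2 differences were 0.24 ± 0.11 for Col4a1 (limma adjusted p = 0.285) and 0.18 ± 0.10 for Col4a2 (limma adjusted p = 0.375).

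Col4a5, a chain of the specialised type IV networks of kidney, eye and other basement membranes and the gene of X-linked Alport syndrome, counted 1760, 1622 and 1572 in vehicle tumours. After PEG-glutaminase it counted 1252, 1160 and 1321. All PEG-glutaminase tumours were below all vehicle tumours, and the means were 1651 ± 97.5 and 1244 ± 80.6 (SD, n = 3). The log2 difference was -0.41 ± 0.08, with a limma p of 0.00063 that became 0.114 after Benjamini-Hochberg adjustment over all tested genes, so the main test did not call it. DESeq2 gave an adjusted p of 0.00804, and over all alternatives tried the adjusted p ran from 0.00804 to 0.296 and the log2 difference from -0.45 to -0.31. Col4a5 did not share the high value of PEG-glutaminase 2, where it was at 0.738 times the median of the other tumours. Its usual network partners were scarce: Col4a6, its neighbour on the X chromosome, had 3 reads in all libraries together, Col4a3 had 9 and Col4a4 had 34.

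Col4a1 and Col4a2 kept the steadiest ratio of the 7 partner pairs that could be compared. Their genes lie head to head, and in the RefSeq promoter table the starts overlap by 22 bases at chr8:11312805-11312826 of GRCm38.p6, shown on the plus strand with the single GGGCGG in capitals because both transcripts begin here.
Col4a1 and Col4a2 start overlap: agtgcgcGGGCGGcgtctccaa
The ratio of their counts was 1.45, 1.47 and 1.47 in vehicle tumours and 1.48, 1.57 and 1.52 after PEG-glutaminase, a highest value 1.09 times the lowest. All 3 PEG-glutaminase ratios were above all vehicle ratios, by 0.06 on the log2 scale, and the exact two-sided permutation p was 0.1, the smallest that 3 against 3 can give. For comparison, the highest Col1a1/Col1a2 ratio (0.395, PEG-glutaminase 2) was 2.17 times the lowest (0.182, vehicle 2), and the type I groups overlapped (log2 difference 0.40, exact permutation p = 0.2). The ratio of Col3a1 to Col1a1 ran from 0.767 to 1.21 with a log2 difference of 0.10 (exact permutation p = 0.7).

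The other ratios differed in all 3 tumours a side, at the same smallest exact permutation p of 0.1, which was 0.14 after adjustment over the 7 ratios. Col5a1/Col5a2 was 6.51, 7.20 and 5.71 in vehicle against 4.84, 2.20 and 5.51 in PEG-glutaminase tumours, and Col5a1/Col5a3 was 9.29, 7.48 and 7.52 against 6.07, 2.87 and 7.23. Col6a1/Col6a2 was 2.87, 3.17 and 2.83 against 2.46, 1.73 and 2.70, and Col6a3/Col6a1 was 0.435, 0.257 and 0.297 against 0.568, 0.799 and 0.449. PEG-glutaminase 2 had the most extreme value of each of these 4 ratios. None passed the test, which 3 against 3 tumours could not pass. The 5 other planned pairs had a chain under the mean of 10 normalized counts. A ratio of counts is not a ratio of molecules.

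**Figure D3:**
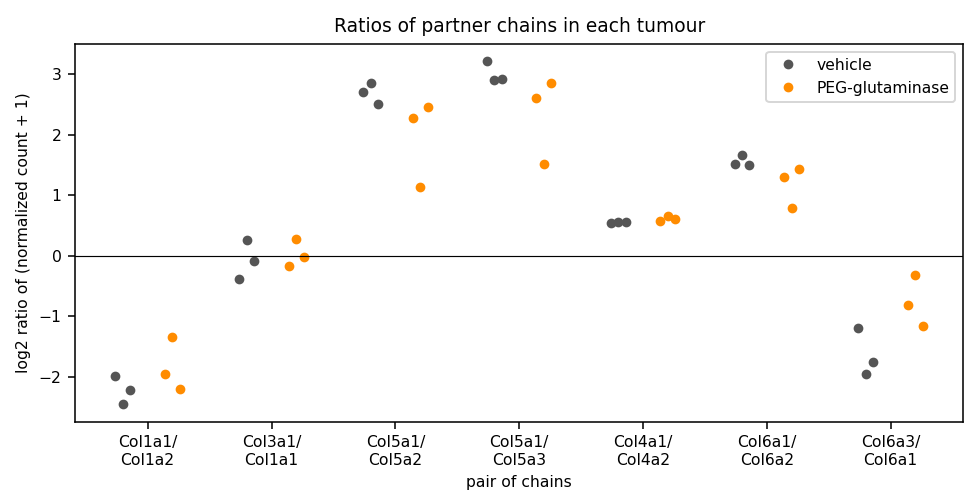
Log2 ratio of (normalized count + 1) for 7 pairs of chains (horizontal axis), 1 point per tumour, vehicle in grey and PEG-glutaminase in orange with replicates 1, 2 and 3 from left to right. The Col4a1/Col4a2 points lie closest together, and the middle orange point, PEG-glutaminase 2, is the extreme of both Col5a1 ratios.

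The multiplexins, 2 basement membrane collagens with heparan or chondroitin sulphate chains, both stood higher in every PEG-glutaminase tumour. Col18a1, the precursor of the fragment endostatin, counted 2149, 2060 and 2454 in vehicle and 2963, 3337 and 2865 in PEG-glutaminase tumours. The groups were separated by more than their spread, with means of 2221 ± 207 and 3055 ± 249 (SD, n = 3). The log2 difference was 0.46 ± 0.09, with a limma p of 0.000596 and an adjusted p of 0.113, so the main test did not call it either. DESeq2 gave an adjusted p of 0.00345, and with no filter on low values limma gave 0.0325. Without that filter limma called 136 genes of the whole table, against 5 in the main setting. Over all alternatives tried the adjusted p ran from 0.00345 to 0.306 and the log2 difference from 0.37 to 0.53. Col15a1, found beneath vessels and muscle fibres, counted 628, 386 and 765 against 977, 2393 and 800. The groups were apart, but PEG-glutaminase 2 was at 3.13 times the median of the other 5, and without it the log2 difference of 1.11 ± 0.52 (limma adjusted p = 0.334) was 0.63.

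**Figure D4:**
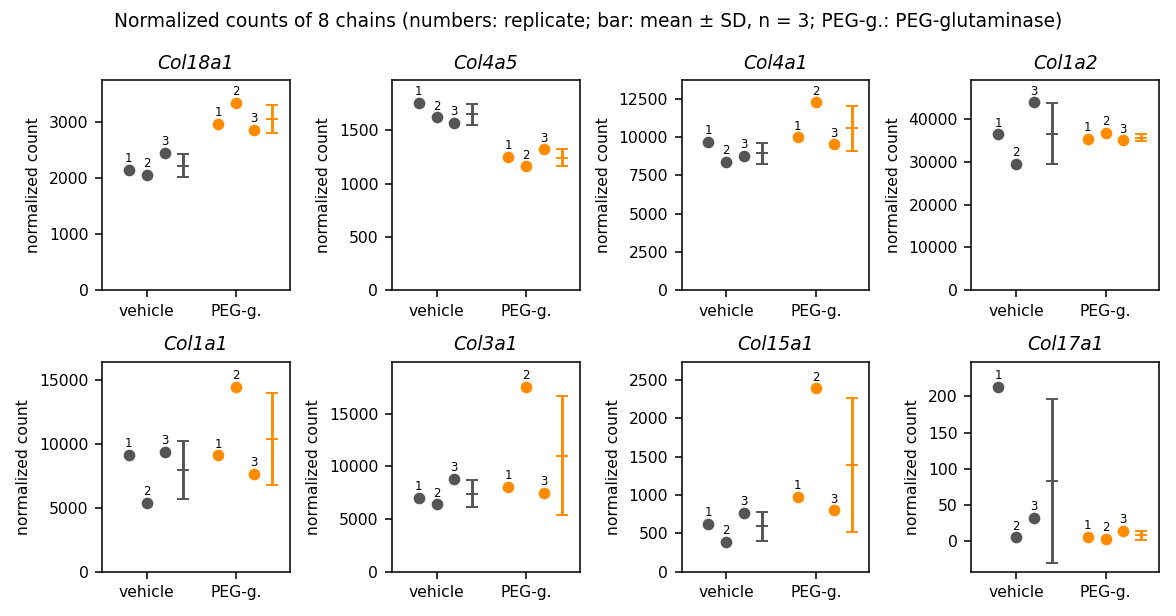
Normalized counts of 8 collagen chains in vehicle (grey) and PEG-glutaminase (orange) tumours, with the replicate number beside each point and the mean ± SD (n = 3) as a bar. Col18a1 and Col4a5 separate the groups, Col1a1 and Col3a1 are highest in PEG-glutaminase 2, and Col17a1 is at 213 in vehicle 1 and at most 31.4 elsewhere.

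Type VI chains, which form beaded filaments around cells, did not pass the test. Col6a1 counted 2681, 2152 and 3691 against 2210, 3505 and 2889 with a log2 difference of 0.02 ± 0.25 (limma adjusted p = 0.969). Col6a2, its neighbour on chromosome 10, counted 933, 678 and 1306 against 898, 2022 and 1068 with a difference of 0.41 ± 0.41 (limma adjusted p = 0.623). Col6a3, the longest chain of the trimer, counted 1167, 551 and 1097 against 1255, 2801 and 1296. All PEG-glutaminase values of Col6a3 were above all vehicle values, 2 of them by less than the spread of the vehicle group, and the log2 difference was 0.90 ± 0.47 (limma adjusted p = 0.375). Col6a5, too low to be tested at a mean of 4.02, was also higher in all PEG-glutaminase tumours (4.12 to 8.91 against 0 to 2.90).

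Of the FACIT chains, which sit on fibril surfaces, Col12a1 shared the high value of PEG-glutaminase 2 and Col16a1 and Col14a1 did not. Col16a1 counted 4777, 4487 and 4629 against 4553, 3753 and 4622 (log2 difference -0.11 ± 0.09, limma adjusted p = 0.548). Col12a1, found in tissue under load, counted 653, 352 and 603 against 609, 1460 and 749 (0.75 ± 0.42, limma adjusted p = 0.395). Col14a1 counted 223, 211 and 159 against 219, 189 and 168 (-0.04 ± 0.17, limma adjusted p = 0.925). Of these 3 chains PEG-glutaminase 2 was highest only for Col12a1 and lowest for Col16a1. Col9a3, a cartilage chain, was low at 14.5, 13.7 and 11.8 against 8.29, 9.90 and 10.3, lower in every PEG-glutaminase tumour (-0.45 ± 0.38, limma adjusted p = 0.534), and its partners Col9a1 and Col9a2 had no read. Col20a1 ran from 22.8 to 45.1 with overlapping groups.

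Among short-chain network collagens, Col8a1, a chain of vessel walls and of the corneal Descemet membrane, counted 4443, 4942 and 4368 against 4907, 4003 and 4581. These values overlapped, with a log2 difference of -0.03 ± 0.10 (limma adjusted p = 0.89). Col10a1, the marker of hypertrophic cartilage, counted 20.3, 19.6 and 150 against 264, 181 and 90.5. The log2 difference of Col10a1, 2.02 ± 0.95, was the highest of the 28 chains, yet the groups overlapped through vehicle 3 and the limma adjusted p was 0.332. Among cartilage and bone markers, Acan, Comp and Matn3 stayed at or under 6.87 in every library, too low to show whether they followed Col10a1. The summed count of all 7 was 664 to 866 in vehicle and 368 to 629 in PEG-glutaminase tumours, nearly all of it Dmp1. Dmp1, the only 1 of them tested, was lower in every treated tumour (limma adjusted p = 0.159, DESeq2 adjusted p = 0.0177). It counted 661, 747 and 858 against 625, 358 and 434.

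None of the transmembrane chains passed the test. Col17a1, the hemidesmosome collagen that ties keratinocytes to the basement membrane, counted 213, 4.90 and 31.4 in vehicle and 5.18, 2.97 and 14.4 in PEG-glutaminase tumours. Vehicle 1 was at 41.2 times the median of the other 5, and it was also the library with the high keratinocyte sum. Vehicle 3, second for Col17a1, was also second for that sum, at 233. The log2 difference of -2.25 ± 1.39 (limma adjusted p = 0.427) was -0.94 without vehicle 1. Col7a1, which builds the anchoring fibrils beneath skin epithelium, was also highest in vehicle 1, at 80.2. It was second in PEG-glutaminase 2, at 66.3, the library with the lowest keratinocyte sum, and ran from 25.5 to 35.3 in the others. The part of skin RNA in these values was not tested. Col23a1 ran from 12.8 to 95.0, Col13a1 from 4.90 to 19.6 and Col28a1, a chain known from peripheral nerve, from 22.8 to 52.5, each with overlapping groups.

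**Figure D5:**
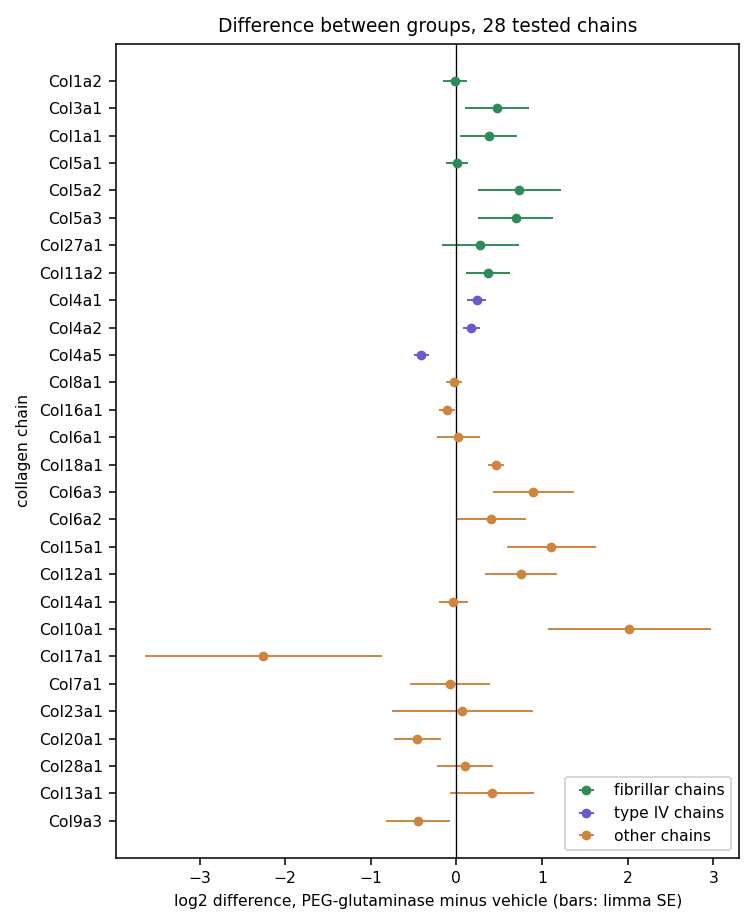
Log2 difference of each tested chain, PEG-glutaminase minus vehicle, on the log2(normalized count + 1) scale with limma standard errors as bars, coloured by class. The bars of Col4a5 and Col18a1 are short, and those of Col10a1, Col15a1 and Col17a1 are wide. All of these bars are clear of 0, as are those of some other chains such as Col4a1, and no chain passed the adjusted threshold.

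The class medians moved with single libraries, PEG-glutaminase 2 and vehicle 2 among them. PEG-glutaminase 2 was at least 1.5 times the median of the other 5 tumours for 13 of 28 chains, against 5.98% of all tested genes. By class these were 5 of 8 fibrillar, 0 of 3 type IV and 8 of 17 other chains, with values of 1.59 to 5.10 times the median. Vehicle 2 was the lowest library for 20 of 28 chains, including all 8 fibrillar ones, against 21.7% of all tested genes. Of the 28 chains 19 had a log2 difference above 0 and 9 one below 0, and without PEG-glutaminase 2 the split was 15 to 13. The median log2 difference of the fibrillar chains went from 0.37 to 0.10 without that library, that of type IV chains from 0.18 to 0.09 and that of the other chains from 0.07 to -0.01. Without vehicle 2 the split was 16 to 12, the fibrillar median 0.21, the type IV median 0.12 and that of the other chains 0.02. The median of all 28 chains went from 0.21 to 0.06 without PEG-glutaminase 2 and to 0.02 without vehicle 2. Without vehicle 1 and PEG-glutaminase 2 together the split was 20 to 8 and the fibrillar median 0.22.

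Marker genes of other cells were also high in PEG-glutaminase 2. At 1.5 times the median of the other tumours or more were 8 of 8 tested skeletal muscle markers, 6 of 7 pericyte and smooth muscle markers, 4 of 9 endothelial markers and 3 of 10 fibroblast markers. The summed pericyte and smooth muscle count was 1917 in that library and 917 to 1131 in the others. The endothelial sum was 4927 against 3580 to 3890. The fibroblast sum went the other way, at 7189 in PEG-glutaminase 2, 7570 and 10628 in the other treated tumours and 10667 to 12652 in vehicle tumours. Its largest part was Dcn, at 2658 in PEG-glutaminase 2 and 4132 to 8640 elsewhere. The 10 fibroblast markers as a list did not share this direction. PEG-glutaminase 2 was the highest library for 4 of them and the lowest for 3, with a median of 1.04 times the other tumours. The macrophage sum was 25512 to 36927 in vehicle and 28948 to 33530 in treated tumours. Of its 7 genes 4 had a log2 difference above 0 and 3, C1qa, C1qb and C1qc, below 0, and the groups overlapped for all but Mrc1. Within that list Mrc1, a receptor of tissue macrophages, was higher in every treated tumour, at 2117, 2078 and 2655 against 5036, 8955 and 4725 (log2 difference 1.40 ± 0.27, limma adjusted p = 0.124, DESeq2 adjusted p = 0.00251). Mrc1 was at 3.37 times the median of the other tumours in PEG-glutaminase 2. Of the 9 endothelial genes 7 had a log2 difference above 0 and 2 below 0, with a median of 0.23. Kdr, Cdh5 and Esam were higher in every treated tumour, a pattern of 13.1% of all tested genes. Kdr, the main VEGF receptor, was at 365, 280 and 388 against 464, 674 and 458 (0.62 ± 0.18, limma adjusted p = 0.154, DESeq2 adjusted p = 0.0322). Cldn5, of the same list, was lower in every treated tumour, at 201, 190 and 149 against 107, 125 and 127 (-0.58 ± 0.16, limma adjusted p = 0.14, DESeq2 adjusted p = 0.0767). The part of muscle, vessel wall, macrophage or fibroblast content in the chain values was not tested.

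The remaining 16 chains were under the mean of 10 normalized counts and were not tested. They are Col2a1, Col11a1 and Col24a1 of the fibrillar class, Col4a3, Col4a4 and Col4a6 of type IV, and Col6a4, Col6a5, Col6a6, Col8a2, Col9a1, Col9a2, Col19a1, Col22a1, Col25a1 and Col26a1 of the others. None exceeded 16.6 normalized counts in a library or 59 reads over all 6. Col9a1, Col9a2 and Col26a1 had no read, which allows up to 3 of 102872849 reads and covers counting error only.

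Of 63 genes that make, process, cross-link or bind collagen or signal through TGF-beta, 62 were analysed here and 54 were tested. By the sign of the log2 difference, here and in each list below, 32 were higher and 22 lower after PEG-glutaminase. None passed limma's test, 9 had an unadjusted p under 0.05 (18.4% of all tested genes did), and edgeR called 0. DESeq2 called 1, Adamts14, where it called 4.18% of the genes it judged. The groups did not overlap for 6 of the 54 with all treated tumours higher and for 4 with all of them lower. Over all tested genes these shares were 13.1% and 12.7%. The median log2 difference was 0.04, and the names below are those of smallest p in each list.

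The smallest p of the pathway genes belonged to propeptide removal. Adamts14, a protease that cuts the amino-terminal propeptide of procollagen, counted 376, 325 and 325 against 522, 469 and 490. The groups did not overlap, and the log2 difference was 0.53 ± 0.10 (limma adjusted p = 0.111, DESeq2 adjusted p = 0.00921). Pcolce, which enhances carboxy-terminal processing, counted 12478, 12964 and 13071 against 10548, 10969 and 11412, lower in every treated tumour by 0.23 ± 0.08 on the log2 scale (limma adjusted p = 0.203). Tll1, a related protease, had a log2 difference of 0.64 ± 0.41. Over the 5 tested members 3 were higher and 2 lower.

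Of the 18 tested genes of chain modification and folding 12 were higher and 6 lower, with a median log2 difference of 0.06. P3h1, a prolyl 3-hydroxylase, counted 407, 386 and 449 against 596, 538 and 492. Colgalt1, which adds galactose to hydroxylysine, counted 2131, 2288 and 2143 against 2522, 2670 and 2631, and Serpinh1, the collagen chaperone HSP47, 10304, 12056 and 12527 against 14827, 13917 and 13001. All 3 genes were higher in every treated tumour. The log2 differences were 0.39 ± 0.11, 0.25 ± 0.07 and 0.26 ± 0.10, with limma adjusted p-values of 0.14, 0.148 and 0.224, none passing the threshold. The 3 alpha subunits of prolyl 4-hydroxylase were split, with log2 differences of -0.33 ± 0.30 for P4ha1, -0.53 ± 0.45 for P4ha2 and 0.80 ± 0.37 for P4ha3.

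Crosslinking enzymes had 4 of 5 members higher. Loxl4 differed by 0.26 ± 0.11 (limma adjusted p = 0.241), Lox by 0.78 ± 0.38 (0.331) and Loxl2 by 0.37 ± 0.30 on the log2 scale, and Lox was highest in PEG-glutaminase 2 at 525 against 145 to 286 elsewhere. Of the 7 tested members of the list of proteoglycans and SPARC 5 were lower, with a median log2 difference of -0.67. The leucine-rich repeat proteoglycan Ogn counted 3310, 3405 and 4073 against 1923, 1076 and 2980, Dcn 6782, 8640 and 5866 against 4132, 2658 and 6255, and Bgn 2779, 2088 and 3809 against 3545, 4120 and 3892. Ogn was lower in every treated tumour while Dcn and Bgn overlapped. PEG-glutaminase 2, the highest library for 5 of the 8 tested fibrillar chains, was the lowest for Ogn and Dcn. The log2 differences were -0.96 ± 0.39, -0.77 ± 0.35 and 0.45 ± 0.21, with limma adjusted p-values of 0.288, 0.313 and 0.307.

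Collagen receptors were split 5 to 3 with a median of 0.05. The integrin subunit Itga2 ran from 3.92 to 15.7 in vehicle and from 19.7 to 24.7 in treated tumours (log2 difference 1.06 ± 0.49, limma adjusted p = 0.283). The inhibitory leukocyte receptor Lair1 (-0.52 ± 0.26, limma adjusted p = 0.326) overlapped between groups, as did Mrc2, which takes up collagen for breakdown (0.19 ± 0.11, limma adjusted p = 0.348). TGF-beta genes were split 6 to 5 with a median of 0.02. The ligand Tgfb3 counted 494, 553 and 615 against 458, 392 and 415, and the receptor Tgfbr1 1070, 1013 and 964 against 852, 827 and 904. Both were lower in every treated tumour, by 0.39 ± 0.11 and 0.24 ± 0.08 on the log2 scale, with limma adjusted p-values of 0.146 and 0.189. The feedback inhibitor Smad7 overlapped between groups at -0.30 ± 0.12 (limma adjusted p = 0.239).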

How the data were processed

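The deposited values are an expression signal: judged from the values, the authors divided reads per gene model by 1 size factor per library. FastQC, STAR, featureCounts and the tools DESeq2 and DESeq are named in the submitters' processing notes. Settings, genome build and strand use are not given in those sources. Rows carry BALB/cJ model identifiers and mouse symbols, per the file headers. The 40396 rows held 40303 models, each used once. Models without a symbol held 0.13% to 0.214% of reads. The authors' own comparison columns were not used, because 567 models at 0 in all 6 library columns have a mean above 0 there. Groups came from the sample titles, 1 tumour per mouse.

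Every library's values were whole multiples of 1 read within a tolerance of 0.01 (100% of values), so reads were recovered for the count tests. For PEG-glutaminase 2, whose step lies near 1, this rests on the values alone. Replicates differed by more than sampling noise (a chi-square of 7.62 or more per degree of freedom).

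Because values are normalized, the planned limma test (3.58.1, R 4.3.3, trend, robust, two-sided) was run on log2(value + 1) for genes with a mean of at least 10, with Benjamini-Hochberg adjustment and a threshold of 0.05, and was tested on simulated data. This scale understates changes of low genes. The recovered reads were also tested with edgeR 4.0.16, which called 5 of all genes, as many as limma, and with DESeq2 1.42.0, which called 500. Ratios were tested by exact permutation. Transcript lengths came from GENCODE M21 and promoter windows from RefSeq, both of GRCm38, another assembly than the models. Chain genes that neighbour each other were counted without known strand use, so overlapping reads cannot be assigned.

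The members and lists were chosen with earlier results of these data known. Named in full were chains that passed, had an unadjusted p under 0.05 or did not overlap, the 3 of highest mean count per class, and partner pairs. From each pathway list up to 3 genes of smallest p were named. The prolyl 4-hydroxylases and the single markers given with values fall outside this rule and were named after their values were seen. Fkbp14 was not analysed here. Alternatives were a pseudocount of 0.5 or 5, dropping the filter or raising it to a mean of 50, an adjusted p of 0.1, a replicate block, TMM scaling, edgeR, DESeq2, limma-voom and each library left out, and, chosen after seeing the data, vehicle 1 and PEG-glutaminase 2 left out together.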

Additional observations from a re-analysis of the deposited data

How the results depend on the processing

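No chain or pathway gene was called by limma, edgeR or limma-voom in any setting that kept the filter on low values. With no filter limma called 1 chain (Col18a1) and 1 pathway gene, among 136 genes of the whole table against 5 in the main setting. DESeq2 called 2 chains and 1 pathway gene, among 500 genes. Replicate numbers are not said to pair the mice. Same-numbered libraries deviated apart (r from -0.22 to -0.129), but deviations were taken from the group means, which forces some correlations to be negative. These values therefore cannot decide whether such libraries share a day, batch or litter. With the number as a replicate block, 0 chains and 0 pathway genes were called, with 2 and 11 at an unadjusted p under 0.05, and 1 of all genes was called against 5 without it. With no filter the type IV median was -0.12, and with a mean of at least 50 the median of the other chains was 0.44, both over other sets of chains. With each library left out in turn, counts of calls stayed at 0, the fibrillar median ran from 0.10 to 0.58, the type IV median from 0.09 to 0.25 and that of the other chains from -0.01 to 0.34.

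Signs of small differences turned when 1 library was left out, and the cause was not tested: Col1a2 ran from -0.16 to 0.12, Col27a1 from -0.12 to 0.66, Col5a1 from -0.15 to 0.093, Col14a1 from -0.19 to 0.058, Col28a1 from -0.19 to 0.40, Col7a1 from -0.44 to 0.39, Col6a1 from -0.16 to 0.23, Col8a1 from -0.10 to 0.051, Col13a1 from -0.13 to 0.77, Col23a1 from -0.74 to 0.53 and the Col3a1/Col1a1 ratio from -0.058 to 0.26. Col5a1 was at -0.0044 with edgeR and -0.0089 with DESeq2. Without vehicle 1 and PEG-glutaminase 2 together Col14a1 was at 0.064, Col16a1 at 0.0094, Col28a1 at -0.22, Col7a1 at 0.019, Col6a1 at -0.16, Col8a1 at 0.029 and Col23a1 at -0.49. Col18a1 and Col4a5 kept their direction in all settings run. Depth limits the 16 chains under the filter, most with too few reads to compare.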
